A study of Homo sapiens with 8 samples.

Results

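The untreated transcriptome of HTETOP cells was described from the 3 arrays of cells that received the vehicle of dexrazoxane for 24 h, named vehicle 1, vehicle 2 and vehicle 3 after the numbers in their titles. These are 3 of the 8 human Affymetrix expression arrays of the study. They were chosen by title, with no use of measured values. The study treated the same line with 100 µM dexrazoxane, an inhibitor of topoisomerase II, or with 1 µg/ml doxycycline, which shuts off topoisomerase II alpha (TOP2A) in these cells. No treated array entered any value below. The single array of cells given the vehicle of doxycycline for 24 h served as a separate check of gene ranks. Each array carried RNA pooled from 3 cell passages, and for the doxycycline vehicle these were passages 15 to 17. The labels name neither the vehicle nor the cultures behind each number, so the spread between arrays may be technical.

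HTETOP derives from HT1080, an established human fibrosarcoma line, a tumor of connective tissue. In HTETOP the cell's own TOP2A genes have been disrupted and the enzyme comes from a transgene that tetracyclines switch off, so all groups, the vehicle arrays included, carry this replacement. Fibroblasts and their tumors build and remodel the matrix around cells: they secrete collagens and fibronectin, hold on to them through integrins, cut them with metalloproteinases and the urokinase system, and exchange growth factors and cytokines with their surroundings. They carry the intermediate filament vimentin, whereas epithelial cells carry keratins and the adhesion molecules E-cadherin and EpCAM.

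Vehicle 1 stood apart from the others. Spearman's correlation over 19775 genes was 0.995 between vehicle 2 and vehicle 3, and 0.989 and 0.990 between vehicle 1 and each of these. A difference of at least 2-fold separated vehicle 2 from vehicle 3 in 14 genes, vehicle 1 from vehicle 2 in 172 genes and vehicle 1 from vehicle 3 in 216 genes. Vehicle 1 was instead closest to the doxycycline vehicle, at 0.993, against 0.983 for each of the other vehicles. These correlations are across genes, which are not independent replicates. Counts without vehicle 1 are given for all genes and for the pooled lists of other lineages, receptors and secreted proteins, but not for single lists.

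The deposited values are log2 signals per probe set, a group of short probes for one transcript. Where 3 values follow a gene, they are the log2 values on vehicle 1, 2 and 3 in that order, and a mean is given with its standard deviation (SD, n = 3). The probe set with the highest mean stood for its gene. A background ceiling was set on each array at the 95th percentile of 82 olfactory receptor genes, odor receptors of the nasal epithelium. It lay at 6.54, 6.79 and 6.78 on the 3 arrays. A gene above the ceiling on all 3 arrays is called above background here, and this held for 8571 of 19775 genes (43.3%). A gene in the highest 10% of genes on all 3 arrays is called bright, and 1756 genes were (8.88%). Every list count below is to be read beside these shares over all genes. On all 3 arrays 9980 genes (50.5%) lay at or under the ceiling, and 1224 genes (6.19%) were above it on only 1 or 2 arrays. A percentile is the rank of a gene among all genes of an array, averaged over the 3 arrays. Signal depends on how well each set of probes binds as well as on the amount of transcript, so these classes sort probe sets by signal and do not order genes by abundance. A gene under the ceiling may still be expressed. A call rests on the chosen probe set: among the genes taken by rule and named here, CYP3A4, SERPINA1, TIE1, MITF, RUNX2, COL1A1, COL4A5, IGF1R, FGFR1, IL6ST, ITGB1, MMP2, TNC, KLHL9 and MYL9 lost it when all probe sets of a gene were averaged. FN1, B2M, ENO1, RPS6, NR3C1, GDF15, TGFBR1, ITGB1, ITGB5, COL4A5, SERPINA1, TIE1, CYP3A4, PPIA, TUBA1B and MYL9 lost it when only probe sets without a suffix for shared probes were used. IL6, CCL2, CD3E, LIN28B, AFP, CYP3A4, TTR, ABCG2, ALDOC, DDIT3, DDIT4, PAEP, MYCT1 and MYL9 lost it at a ceiling on the 99th percentile. In the other direction, HGF, PDGFRB, PTCH1, CDH11, KRT7 and ESR1 were above the ceiling of the doxycycline vehicle array. ESR1 also passed the ceiling on the 90th percentile and the one without olfactory receptor genes beside HBE1. KRT7 gained the call in 7 alternatives, among them the use of only probe sets without a suffix for shared probes. Without vehicle 1, 8644 genes were above background and 1879 were bright.

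**Figure D1:**
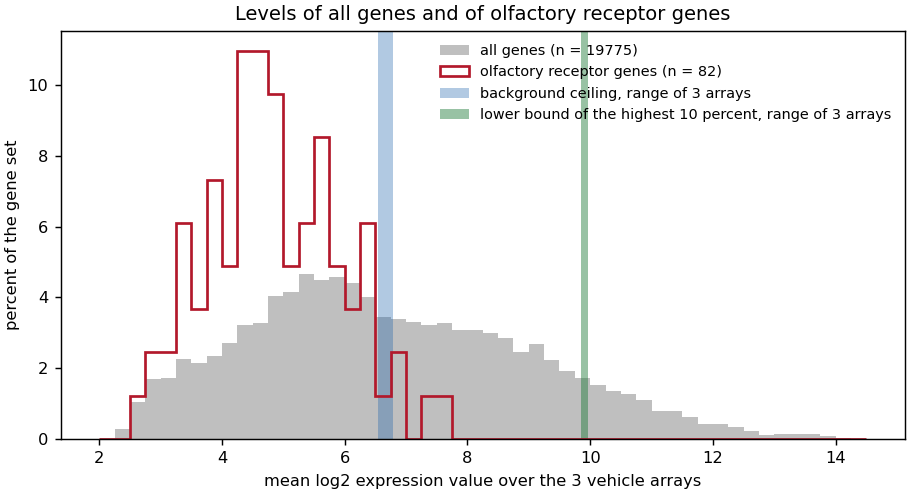
Percent of all 19775 genes (gray) and of the 82 olfactory receptor genes (red line) in each interval of mean log2 expression value over the 3 vehicle arrays. The blue band spans the 3 background ceilings, 6.54 to 6.79, and the green band the lower bound of the highest 10% of genes, 9.85 to 9.97; 77 of the 82 olfactory receptor genes lie at or under the ceiling, as its definition sets.

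The brightest probe sets belonged to the machinery of translation, the cytoskeleton and glycolysis. Of the 30 genes with the highest means, 20 encoded ribosomal proteins, as did 48 of the highest 100. In the list of cytosolic ribosomal proteins 31 of 32 measured genes were bright, among them RPS6 at 13.75, 13.82 and 13.77. The other 10 of the highest 30 were GAPDH (14.15), EEF1A1 (14.13), ACTB (13.91), TPT1 (13.88), PPIA (13.86), ANXA2 (13.83), TMSB10 (13.81), VIM (13.80), TUBA1C (13.78) and TUBA1B (13.74), with the mean log2 value of each in parentheses. The probe sets of several of these carry the suffix x_at, which the manufacturer gives to sets whose probes can match related genes, so gene copies and pseudogenes may share their signal. In glycolysis, 19 of 19 measured genes were above background and 13 were bright, including LDHA, which makes lactate, at 13.57, 13.63 and 13.55, and ENO1 at 13.20, 13.25 and 13.15. In the cytoskeleton and motility list 32 of 34 were above background and 26 were bright. TMSB4X was at or under the ceiling on all 3 arrays (mean 3.45), on the single probe set assigned to it alone. Among metallothioneins, small proteins that bind zinc and copper, 6 of 9 were bright, led by MT2A at 13.19, 13.09 and 13.26.

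TOP2A, the enzyme that untangles replicated chromosomes and is the target in this study, was bright at 12.41, 12.55 and 12.40, a mean of 12.45 ± 0.09 (SD, n = 3), with 2 of its 3 probe sets above background. TOP2B, the form that resting cells also carry, was above background at 10.02, 9.97 and 9.73. The range over the 3 arrays was 0.15 for TOP2A and 0.28 for TOP2B on the log2 scale.

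Promoters of bright genes had a higher median ratio of observed to expected CG pairs than those of genes at or under the ceiling. In the RefSeq table for GRCh38.p14, which lists 250 bases before and 50 after the start of each gene, a promoter was found for 13455 of 15939 protein-coding genes. The ratio of observed to expected CG pairs had a median of 0.875 in 1484 bright genes, 0.856 in 5539 genes above background and not bright, 0.797 in 879 genes above on 1 or 2 arrays, and 0.579 in 5553 genes at or under the ceiling. A ratio of at least 0.6 was found in 89.96% of bright promoters and in 48.7% of those at or under the ceiling, against 70.4% of all. The motif TATAAA, read on the strand of the gene, was in 4.78% of bright promoters, 2.98% of those above background and not bright and 9.33% of those at or under the ceiling, against 5.86% of all measured genes with a promoter and 7.71% of all 27305 promoters in the table. The AP-1 site TGAGTCA or TGACTCA, which are each other's reverse complement and so cover both strands, was in 3.30% of bright promoters and 4.32% of those at or under the ceiling, against 3.55% of all measured genes with a promoter and 4.92% of all 27305. Genes were not matched for length or number of probe sets in these shares, which are descriptions.

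The 250 bases before the start are printed for 4 genes of this report as examples, not as typical members of a class, 5′ to 3′ on the strand of the gene, from RefSeq (GRCh38.p14). Capitals mark CG pairs in FN1, ALB and MTAP. In CXCL8 they mark TGACTCA and TATAAA. FN1 encodes fibronectin and was bright (chr2:215436069-215436318, minus strand). ALB encodes serum albumin of the liver and was at or under the ceiling (chr4:73404037-73404286, plus strand). MTAP encodes an enzyme of methionine salvage and was at or under the ceiling (chr9:21802386-21802635, plus strand). CXCL8 encodes interleukin 8, a chemokine for neutrophils, and was above background (chr4:73740319-73740568, plus strand).
FN1: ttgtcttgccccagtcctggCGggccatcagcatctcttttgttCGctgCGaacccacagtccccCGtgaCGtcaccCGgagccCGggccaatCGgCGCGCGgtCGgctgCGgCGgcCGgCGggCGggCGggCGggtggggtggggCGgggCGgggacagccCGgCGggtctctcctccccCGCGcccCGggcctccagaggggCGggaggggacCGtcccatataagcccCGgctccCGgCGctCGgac
ALB: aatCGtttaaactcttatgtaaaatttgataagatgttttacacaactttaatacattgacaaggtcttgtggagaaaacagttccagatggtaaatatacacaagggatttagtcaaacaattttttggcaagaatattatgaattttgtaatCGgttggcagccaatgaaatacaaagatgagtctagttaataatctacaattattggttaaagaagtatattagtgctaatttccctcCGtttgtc
MTAP: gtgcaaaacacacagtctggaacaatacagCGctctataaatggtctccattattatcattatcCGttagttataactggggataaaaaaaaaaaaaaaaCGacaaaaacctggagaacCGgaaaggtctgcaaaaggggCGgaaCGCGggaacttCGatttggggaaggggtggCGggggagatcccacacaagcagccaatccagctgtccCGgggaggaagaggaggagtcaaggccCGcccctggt
CXCL8: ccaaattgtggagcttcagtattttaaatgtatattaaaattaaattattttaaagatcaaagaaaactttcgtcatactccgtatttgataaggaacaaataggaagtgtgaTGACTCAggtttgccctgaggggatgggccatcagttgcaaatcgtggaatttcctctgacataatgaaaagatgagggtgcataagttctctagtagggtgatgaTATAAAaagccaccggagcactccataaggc

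FN1 held 32 CG pairs, an observed to expected ratio of 0.878, and lay at 12.25, 11.89 and 11.84. ALB held 3 CG pairs, a ratio of 0.545, and lay at 4.15, 4.29 and 4.27. MTAP held 11 CG pairs, a ratio of 0.721, and lay at 6.11, 6.34 and 6.27. In CXCL8 the AP-1 site began 137 bases and TATAAA 31 bases before the start, and the gene lay at 9.20, 10.48 and 10.63. With 4 CG pairs and a ratio of 0.470 it was unlike most of its class, in which 86.2% of promoters reached 0.6 and 2.98% held TATAAA. The windows differ: the values of single genes cover the 250 bases printed, and the class shares also cover 50 bases after the start. A motif match is a description of the sequence, and binding was not measured here.

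Markers of mesenchymal cells and fibroblasts were above background more often than markers of any other tissue lineage examined, but the set was not complete. Of 41 measured, 25 were above background (61.0%, against 43.3% of all genes), 13 were bright and 13 were at or under the ceiling. VIM, the mesenchymal intermediate filament, lay at 13.82, 13.83 and 13.75. LGALS1 (13.60 ± 0.06), COL6A3 (12.66 ± 0.06), CAV1 (12.18 ± 0.14) and SPARC (11.93 ± 0.08) were bright as well (mean ± SD, n = 3). CD44, a receptor for hyaluronan, was bright at 11.63, 11.76 and 11.51, with 8 of its 13 probe sets above background. TPM1, an actin-binding tropomyosin, was highest on vehicle 1, at 12.50, against 11.33 and 11.71. Chosen after their values were seen, 4 genes of the epithelial to mesenchymal transition were also above background: ZEB1 at 10.33 ± 0.06 and the cadherin CDH2 at 10.23 ± 0.28, both bright, and the transcription factors SNAI2 at 9.68 ± 0.23 and TWIST2 at 9.07 ± 0.13. The related factors SNAI1 and PRRX1, chosen likewise, were at or under the ceiling, SNAI1 at 5.75, 5.93 and 5.61 and PRRX1 at a mean of 5.39.

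Other fibroblast hallmarks were dim. COL1A2, a chain of type I collagen, lay at 5.73, 5.80 and 5.59, with 0 of 3 probe sets above background. COL1A1, the partner chain, was called above background at 7.97, 8.21 and 7.97, but through 1 of 5 probe sets. PDGFRB, the receptor for platelet-derived growth factor of stromal cells, lay at 6.42, 6.45 and 6.54, under the ceiling of each array, and was above the ceiling of the doxycycline vehicle. Decorin (DCN), a proteoglycan of connective tissue, had 0 of 7 probe sets above background, at 5.62, 6.23 and 6.07.

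Markers of other tissues were mostly under the ceiling. Over 10 lists of other lineages pooled, 23 of 142 measured markers were above background (16.2%, against 43.3% of all genes), 3 were bright and 111 were at or under the ceiling. Without vehicle 1 the count above background was 24. Of 25 epithelial markers, 3 were above background. CDH1, which encodes E-cadherin, lay at 3.54, 3.94 and 4.04 and EPCAM at 3.09, 3.42 and 3.21, at the 10.1 and 4.8 percentiles. A pair of simple epithelial keratins was above background: KRT18, bright at 11.17, 11.15 and 11.16, and KRT8, its partner, at 10.19, 9.60 and 9.32, each through its single probe set, of the x_at kind. Other keratins of simple epithelia were not called. The chosen probe set of KRT7 was above the ceiling on 2 of 3 arrays, at 7.60, 6.70 and 6.96. Another of its 4 probe sets was above it on all 3, so the call of KRT7 depends on the probe set. KRT19 and KRT20, chosen after their values were seen, were at or under the ceiling, at means of 4.78 and 4.52. KRT5, a keratin of basal epithelium, was at or under the ceiling at 5.88, 6.02 and 6.19.

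The exceptions in the remaining lineages were scattered, and the defining gene of each was mostly dim. Among endothelial markers 2 of 15 were above background: TIE1, at 8.82, 8.42 and 8.66, and ROBO4, at 8.01, 7.77 and 7.84, each through 1 of 2 probe sets. The vessel cadherin CDH5 (4.44, 3.70 and 4.10) and VWF (5.46, 5.44 and 5.34) were under the ceiling. Among 19 leukocyte markers 4 were above background, with LCP1, an actin bundler, bright at 11.07, 10.76 and 10.85. CD3D, a chain of the T cell receptor complex, lay at 8.19, 8.56 and 8.97, and CD3E, a partner chain, at 6.81, 7.12 and 7.10. PTPRC, the CD45 antigen common to leukocytes, was under the ceiling at 3.85, 3.84 and 3.84, with 0 of 5 probe sets above. In muscle 3 of 18 were above background, including slow troponin T (TNNT1) at 9.48, 9.65 and 9.76, whereas desmin (DES, 5.94, 5.72 and 5.79) and MYOD1 (6.35, 6.26 and 6.04) were not. Of 19 neural markers 2 were above background. The tubulin TUBB3 was bright at 12.45, 12.39 and 12.24, on a probe set of the x_at kind, so related tubulins may share its signal. Synaptophysin (SYP) was under the ceiling at 5.88, 6.30 and 6.26.

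In cartilage and bone 3 of 12 markers were above background: the matrix phosphoprotein SPP1 at 9.69, 10.74 and 10.90, and the transcription factors SOX9 at 9.57, 9.54 and 9.49 and RUNX2 at 9.36, 9.23 and 9.52. RUNX2 was called through 1 of 6 probe sets, and SOX9 through 2 of 2. The melanocyte regulator MITF was above background at 8.68, 7.92 and 8.34, while MLANA, a melanosome protein, was under the ceiling at 4.83, 4.92 and 4.83. Of 12 hepatocyte markers 4 were above background, SERPINA1 at a mean of 7.81 and CYP3A4, AFP and TTR at 7.23, 7.05 and 6.92. The last 3 lay close to the ceilings and lost the call at the 99th percentile. Adipocyte markers gave 0 of 9, with ADIPOQ at 2.90, 2.73 and 2.89. Among pluripotency factors 1 of 8 was above background, the RNA-binding protein LIN28B at 7.76, 7.24 and 7.50, and SOX2 and NANOG were under the ceiling.

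Cancer-testis antigens, genes normally confined to germ cells and reactivated in some tumors, were above background in 10 of 16 measured (62.5%, against 43.3% of all genes), and 5 were bright (31.2%, against 8.88%). MAGEA6 lay at 11.90, 11.82 and 11.86, MAGEA12 at 11.77, 11.68 and 11.80, and CTAG2 at 11.83, 11.58 and 11.77. MAGEB2 and SSX1 were bright too, at 10.95 ± 0.16 and 10.92 ± 0.17. PRAME lay at 8.88, 9.24 and 9.14. The family was not uniform: MAGEA4 was under the ceiling at 4.49, 4.53 and 4.29, as were the germ cell genes DDX4, BRDT and DAZL, chosen after their values were seen, at means of 3.84, 3.43 and 2.68. Members of the MAGEA and SSX families are near copies of each other, so the signal of one may include that of another.

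HOX genes record the position of a cell along the body axis. Of 28 measured, 10 were above background (35.7%, against 43.3% of all genes) and 0 were bright. The HOXB cluster gave 5 of 10, with HOXB2 at 9.59, 9.85 and 10.04 and HOXB7 at 9.01, 8.49 and 8.69. The HOXC cluster gave 4 of 9, with HOXC6 at 8.49, 8.04 and 8.48. The HOXD cluster gave 1 of 8, HOXD8, chosen after its value was seen, at 7.25, 7.13 and 7.06, and HOXD10 was under the ceiling at 4.80, 4.51 and 4.69. Of 11 listed HOXA genes 1 was measured, at or under the ceiling, so the HOXA cluster was not described.

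**Figure D2:**
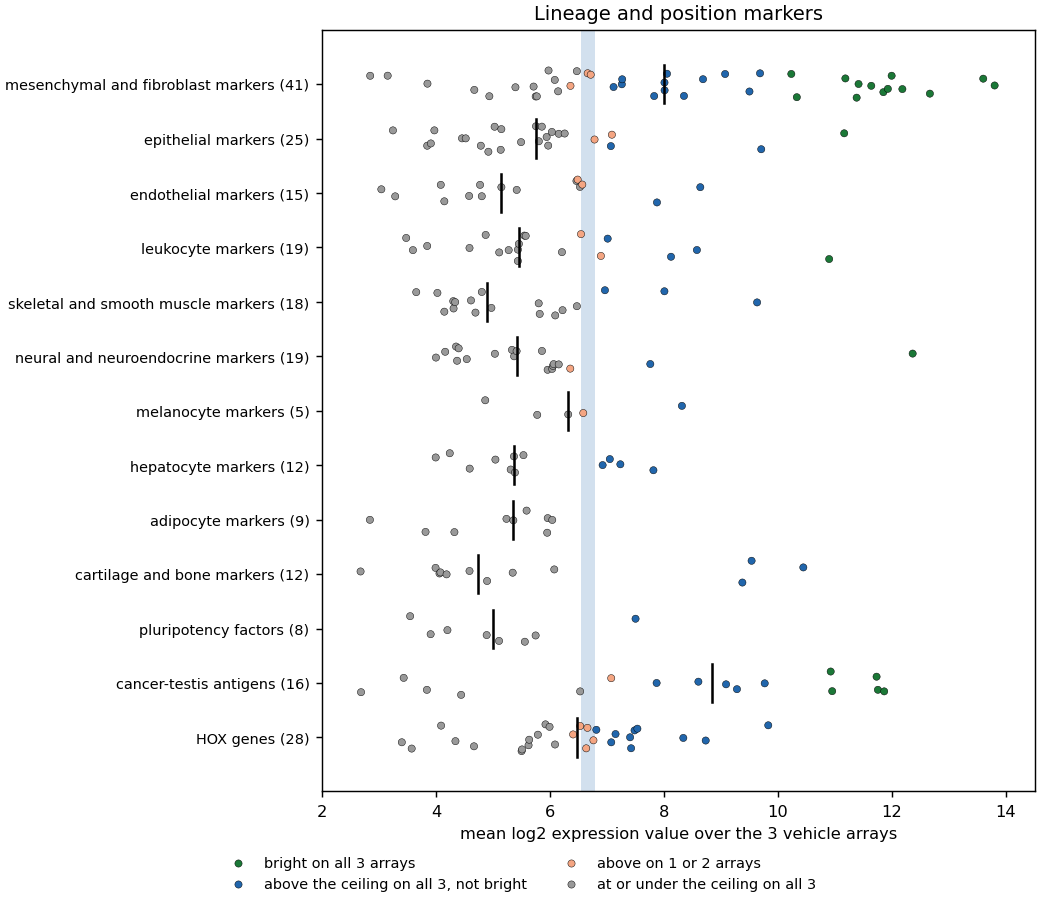
Mean log2 expression value over the 3 vehicle arrays of each measured gene (point) in 13 lists of lineage and position markers, with the number measured in parentheses, the list median as a black bar and the background ceilings as a blue band. Mesenchymal markers and cancer-testis antigens have medians above the band (8.01 and 8.84), and the medians of epithelial to pluripotency lists lie under it.

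Receptors were above background about as often as genes at large: 116 of 291 measured in 9 lists (39.9%, against 43.3% of all genes), with 18 bright and 151 at or under the ceiling. Without vehicle 1 the count was 119. Of 55 receptor tyrosine kinases, which pass growth signals into the cell, 16 were above background (29.1%) and 3 were bright (5.45%). AXL, the receptor for GAS6, lay at 12.09, 11.93 and 11.98. MET, the receptor for hepatocyte growth factor, lay at 11.18, 10.86 and 10.96, and RYK, which binds WNT proteins, at 10.04 ± 0.04. These 3 stood well over the ceiling in every array. DDR2, a collagen receptor, lay at 9.45 ± 0.06 and EPHA2, an ephrin receptor, at 9.24 ± 0.26. EGFR lay at 8.87, 8.62 and 8.43, with 3 of 9 probe sets above background, IGF1R at 7.91, 7.87 and 8.09, with 2 of 5, and FGFR1 at 7.89, 7.59 and 7.79, with 2 of 7. KIT was under the ceiling at 4.72, 4.96 and 4.56.

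Integrins join the matrix to the cytoskeleton as pairs of an alpha and a beta chain. Of 25 measured, 9 were above background (36.0%, against 43.3% of all genes) and 6 were bright (24.0%, against 8.88%). The bright ones were ITGB1 at 12.66, 12.59 and 12.51, ITGAV at 11.56, 11.79 and 11.56, ITGA6 at 11.13, 11.17 and 11.10, and ITGA2, ITGB5 and ITGAE at means of 10.71, 10.68 and 10.43. ITGA5, the alpha chain of the classical fibronectin receptor, lay at 8.74 ± 0.09. The leukocyte beta chain ITGB2 (5.56, 6.02 and 5.89) and ITGB4, the beta chain of epithelial hemidesmosomes (5.58, 5.59 and 5.84), were under the ceiling.

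Receptors of the transforming growth factor beta family gave 8 of 13 above background (61.5%, against 43.3% of all genes) and 0 bright. TGFBR1 lay at 9.99, 10.15 and 9.91 and TGFBR2, with which it forms the signaling complex, at 9.76, 9.77 and 9.92. Cytokine and death receptors gave 26 of 46 (56.5%). TNFRSF10B, a receptor for the death ligand TRAIL, was bright at 10.86, 11.06 and 11.15. IL6ST, the signaling chain shared by receptors of the interleukin 6 family, was bright at 10.99, 11.01 and 10.86, and OSMR, which pairs with it, lay at 9.80, 10.03 and 9.76. The interleukin 1 receptor IL1R1 was under the ceiling at 4.29, 4.15 and 3.95.

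Of 52 G protein-coupled receptors for peptides, lipids and nucleotides, 10 were above background (19.2%, against 43.3% of all genes) and 39 were at or under the ceiling. The highest means were those of LPAR3, a receptor for lysophosphatidic acid, at 8.36, 8.54 and 8.96, and of the thrombin receptor F2R at 8.66, 8.51 and 8.21. The chemokine receptor CXCR4 was under the ceiling at 5.28, 5.70 and 5.38. WNT, Notch and Hedgehog receptors gave 9 of 17, with NOTCH2 bright at 10.81, 10.87 and 10.96, the WNT receptor FZD6 at 9.23, 9.01 and 8.72, and the Hedgehog receptor PTCH1 above the ceiling on 1 array, at 6.56, 6.58 and 6.37. Nuclear hormone receptors gave 13 of 39. The glucocorticoid receptor NR3C1 was bright at 11.24, 11.73 and 11.55, whereas ESR1, an estrogen receptor, had 0 of 9 probe sets above background, at 6.46, 6.61 and 6.57.

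Surface proteins of antigen presentation and immune contact gave 22 of 34 above background (64.7%, against 43.3% of all genes), and 4 were bright (11.8%, against 8.88%). B2M, the light chain of class I molecules, lay at 13.10, 13.27 and 13.22, and the class I heavy chains HLA-C and HLA-B at 10.23 ± 0.30 and 9.33 ± 0.27. Class I genes are near copies of each other and can share signal. HLA-DRA, a class II chain of antigen-presenting cells, was under the ceiling at 5.24, 4.98 and 5.10. The complement regulators CD59 (12.42 ± 0.20) and CD46 (10.47 ± 0.11) and CD47, which restrains phagocytes (10.66 ± 0.06), were bright. CD274, the ligand PD-L1 that restrains T cells, lay at 9.24, 8.29 and 8.82, with 1 of 2 probe sets above background. Among ABC transporters, which pump drugs out of cells, 5 of 12 were above background. ABCC1 lay at 8.68, 8.64 and 8.69 and ABCG2 at 7.11, 6.91 and 7.18, and ABCB1, the P-glycoprotein, was under the ceiling at 3.75, 3.90 and 4.08.

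**Figure D3:**
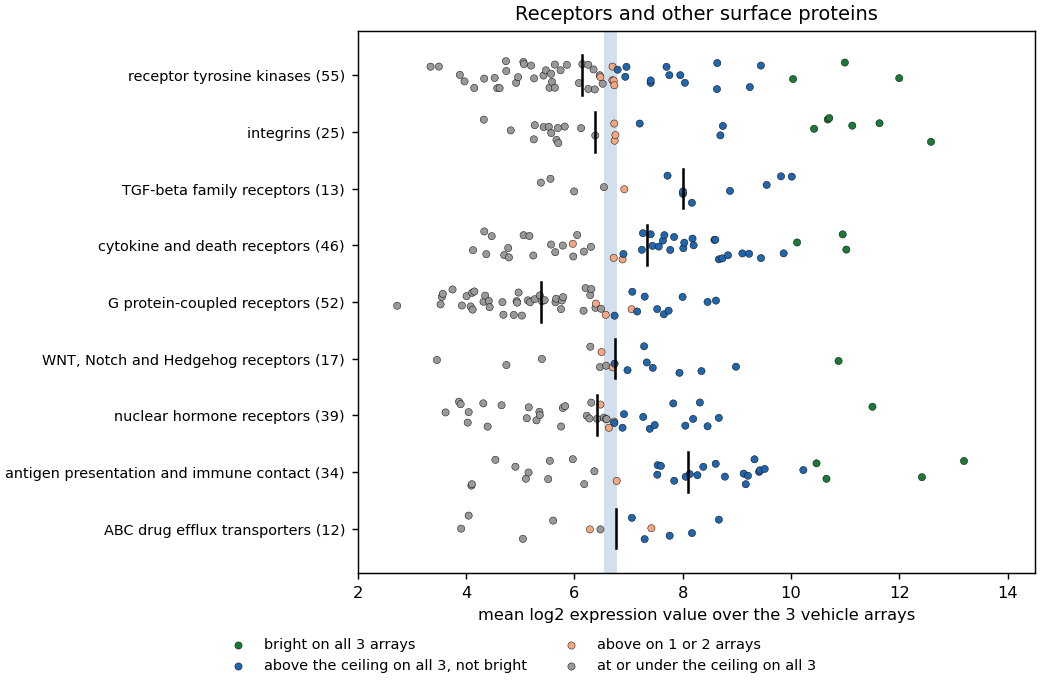
Mean log2 expression value over the 3 vehicle arrays of each measured gene (point) in 9 lists of receptors and surface proteins, with the number measured in parentheses, the list median as a black bar and the background ceilings as a blue band. The medians of antigen presentation and of TGF-beta family receptors lie above the band (8.09 and 8.01) and that of G protein-coupled receptors under it (5.39).

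Secreted and matrix proteins were above background in 110 of 269 measured (40.9%), with 29 bright (10.8%, against 8.88% of all genes) and 144 at or under the ceiling. Without vehicle 1 the count above background was 113. Collagens gave 10 of 36, and 2 were bright: COL6A3 at 12.73, 12.63 and 12.63 and the transmembrane collagen COL13A1 at 10.82, 10.73 and 10.79. The chains of basement membrane collagen IV were highest on vehicle 1, COL4A1 at 10.58, 9.79 and 10.03 and COL4A2 at 10.60, 9.66 and 9.73. Laminins and other matrix glycoproteins gave 20 of 38, with FN1, SPARC, EFEMP1 (11.30 ± 0.08), LAMB3 (10.51 ± 0.05), LAMC1 (10.42 ± 0.21) and the collagen cross-linking enzyme LOX (11.23 ± 0.28) bright. Tenascin C (TNC) lay at 10.06, 10.08 and 9.89 through 1 of 3 probe sets. Proteoglycans gave 10 of 27, with SRGN, the proteoglycan of secretory granules, at 12.34, 12.49 and 12.50 and SPOCK1 at 11.86, 11.77 and 11.79.

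Growth factors gave 23 of 49 above background (46.9%, against 43.3% of all genes), and 8 were bright (16.3%, against 8.88%). STC1, a glycoprotein hormone, lay at 12.16, 12.74 and 12.52. GDF15, a distant member of the transforming growth factor beta family, was lowest on vehicle 1, at 11.39, 12.64 and 12.85. CCN2, a matrix-associated growth factor, lay at 11.92, 11.14 and 12.02, PDGFC at 11.33, 11.11 and 11.22, and HBEGF, a ligand of EGFR, at 10.70, 10.70 and 10.85. VEGFA, which drives vessel growth, was again lowest on vehicle 1, at 9.56, 10.62 and 10.19. VEGFC, its lymphatic relative, was bright at 10.23, 9.88 and 10.13. GAS6, the ligand of AXL, chosen after its value was seen, was bright at 10.25 ± 0.17, so signals for both ligand and receptor were high. HGF, the ligand of MET, had 0 of 5 probe sets above background, at 6.14, 6.23 and 6.04. Among antagonists and binding proteins 10 of 30 were above background. IGFBP7 (11.59 ± 0.31) and DKK3 (10.89 ± 0.24) were bright, while IGFBP3, DKK1 and GREM1 were under the ceiling at means of 5.15, 5.10 and 2.71.

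Cytokines and chemokines gave 13 of 43 above background (30.2%, against 43.3% of all genes), and several of them differed between the arrays. MIF was bright and even, at 12.55, 12.66 and 12.72, and IL11 lay at 9.87, 9.89 and 9.90. In contrast IL1B, a central inflammatory cytokine, lay at 7.37 on vehicle 1 and at 10.60 and 10.42 on vehicle 2 and 3, and IL24 at 8.90, 10.92 and 10.96. CXCL8 and the monocyte chemokine CCL2 were lowest on vehicle 1 too, CCL2 at 7.03, 8.41 and 8.12. IL6 lay at 7.06, 7.81 and 7.72. A mean over the 3 arrays does not describe IL1B or IL24 well, because vehicle 1 lies far from the rest.

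Extracellular proteases and their inhibitors gave 25 of 47 above background (53.2%, against 43.3% of all genes), and 8 were bright (17.0%, against 8.88%). MMP1, the collagenase that cuts fibrillar collagens, lay at 11.79, 13.07 and 12.87. The urokinase PLAU lay at 11.43, 12.12 and 11.84 and its receptor PLAUR at 10.57, 10.37 and 10.81, so signals for both were high. The metalloproteinase inhibitors TIMP1 (11.71 ± 0.21) and TIMP2 (11.43 ± 0.30) were bright beside the enzymes they block. MMP14, a membrane-bound metalloproteinase, lay at 9.10, 9.60 and 9.74 and MMP2, which it activates, at 9.35, 9.29 and 9.31. MMP2 was called through 1 of 3 probe sets and MMP14 through 4 of 4.

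**Figure D4:**
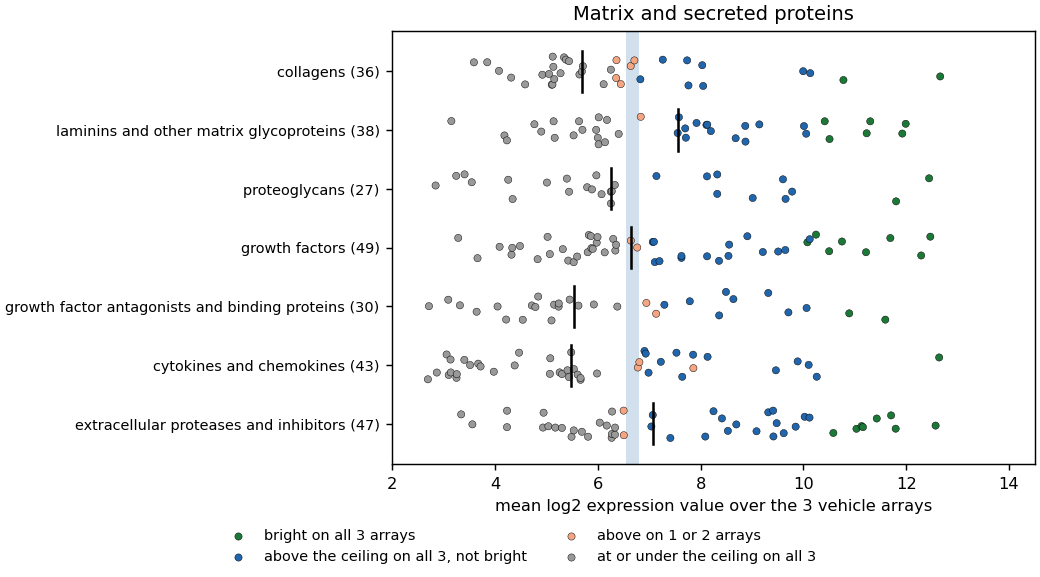
Mean log2 expression value over the 3 vehicle arrays of each measured gene (point) in 7 lists of matrix and secreted proteins, with the number measured in parentheses, the list median as a black bar and the background ceilings as a blue band. The medians run from 5.48 for cytokines and chemokines to 7.57 for laminins and other matrix glycoproteins, and every list holds members at or under the band.

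Genes of growth control were mostly above background, 18 of 22 (81.8%, against 43.3% of all genes), with 7 bright (31.8%, against 8.88%). IDH1, the cytosolic isocitrate dehydrogenase, lay at 11.42, 11.54 and 11.45, RRAS2 at 11.19, 11.01 and 11.10, and CDK4 at 11.15, 11.07 and 11.07. RB1, the pocket protein that CDK4 phosphorylates, was bright at 10.70, 10.37 and 10.30, through 1 of 2 probe sets. TERT, the catalytic subunit of telomerase, was under the ceiling at 6.22, 5.80 and 5.73. CDKN2A, which encodes the CDK4 inhibitor p16, lay at 5.33, 5.29 and 5.07, with 0 of 3 probe sets above background, and its neighbor CDKN2B, another such inhibitor, at 4.16, 4.05 and 4.10, with 0 of 2. In the order of genes on chromosome 9 (RefSeq, GRCh38.p14), MTAP on one side, with 0 of 6 probe sets above background, and DMRTA1 and, chosen after its value was seen, ELAVL2 on the other, at means of 4.94 and 4.79, were under the ceiling as well. Further out, KLHL9 lay at 10.02, 9.82 and 9.82, through 2 of 4 probe sets, and TUSC1 at 8.78, 8.20 and 8.40. Type I interferon genes lie between MTAP and KLHL9, and those measured were under the ceiling. DNA copy number and methylation were not measured.

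Among the 8571 genes above background the median SD over the 3 arrays was 0.163 on the log2 scale, and 78.2% of them varied by less than 0.5 between the lowest and the highest array. A range of at least 1, a 2-fold difference, was found in 125. Vehicle 1 was the array farthest from the others in most of these, higher in 57 and lower in 44. The 10 widest ranges included the secreted proteins IL1B, IL24, PAEP and MMP3, the protease inhibitor CSTA, the glycolytic enzyme ALDOC, the stress transcription factor DDIT3, NDRG1, MYCT1 and MYL9. CSTA lay at 7.86, 9.60 and 10.07, MMP3 at 7.29, 8.86 and 9.09, and NDRG1, which responds to low oxygen, at 9.72, 11.30 and 11.46. DDIT3 lay at 7.04, 7.78 and 8.94. MYL9, a myosin light chain of contractile cells, ran the other way, at 9.01, 7.74 and 7.27. All but MYL9 of these 10 were lowest on vehicle 1, and the cause was not tested.

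**Figure D5:**
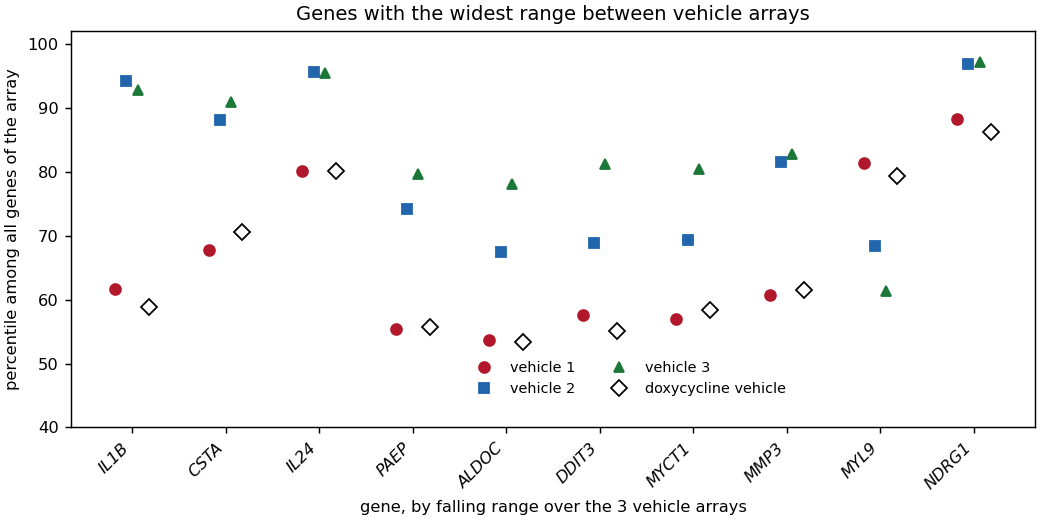
Percentile among all genes of each array (vertical axis) for the 10 genes above background with the widest log2 range over the 3 vehicle arrays (horizontal axis), with the doxycycline vehicle as open diamonds. For each gene the doxycycline vehicle lies nearest to vehicle 1, as for IL1B at 58.9 against 61.7 on vehicle 1 and 94.2 and 92.9 on the others.

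Ranks on the doxycycline vehicle array were close to those on the 3 vehicle arrays. Its values lay on a lower scale, with a median over all probe sets of 4.82 against 5.50 to 5.56, so only ranks and calls against its own ceiling of 5.83 were used. Spearman's correlation with the mean of the 3 arrays was 0.989 over all genes and 0.977 over genes above background. On this array 9863 genes (49.9%) were above the ceiling. They included 8539 of the genes above background on the 3 vehicle arrays, 99.6% of those and 86.6% of its own. Of the bright genes 1720 were bright on both, 97.9% of those on the 3 arrays and 87.0% of its own. The median shift was 1.51 percentile points, and 2 of the 8571 genes above background moved by at least 20. IL1B was 24.0 points lower and DDIT4, a stress-induced inhibitor of growth signaling, 21.2 points lower. DDIT4 was not above the ceiling of the doxycycline vehicle array, so it entered through the 3 vehicle arrays only. Shifts up were as large among genes above the ceiling on the doxycycline vehicle array that were not above background on the 3 arrays. CCDC190 was 25.2 points higher, ADAMTSL1 23.5, SCAF1 23.2, ST6GAL2 21.1 and CACNA2D3 20.7. On the doxycycline vehicle array they lay at 5.97, 6.48, 6.07, 6.06 and 5.84 in that order, against its ceiling of 5.83. These genes entered only by passing that ceiling, which favors shifts up, so their direction is not a finding. Genes above background on the 3 arrays or above the ceiling on the doxycycline vehicle array were ranked by shift. The 10 largest shifts down also held MMP3, PAEP and DDIT3. The 10 largest up held CDH11, a mesenchymal cadherin, which moved from the 51.2 to the 70.0 percentile. CDH11 too entered through the doxycycline vehicle array only. Genes under the ceiling throughout were not ranked by shift. The bright genes VIM, FN1, AXL, ITGB1 and MMP1 were bright there as well.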

How the data were processed

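Expression was measured on 8 arrays, of which the 3 dexrazoxane vehicle arrays and, for ranks, the doxycycline vehicle array were used. The table deposited by the authors holds log2 values of probe sets. Per the submitters' processing notes these are RMA values, and the sources used here do not give whether all arrays were normalized together. Deposited values were used as they stand, and 0 columns of per-sample values had no sample. Of 54675 probe sets, 41097 carried 1 gene symbol in the platform annotation, 1801 carried several and 11777 were not named there. Symbols of 41043 were updated through Entrez identifiers and the RefSeq table for GRCh38.p14, and 54 were kept. For each of the 19775 genes, the probe set highest on average in the 3 vehicle arrays was taken.

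The members and the 36 lists, drawn from general knowledge, were chosen with earlier results of these data known. The lists held 1066 genes, of which 955 had a probe set of their own in the annotation used. Names in the text were drawn from TOP2A and TOP2B, the 30 genes with the highest means (ribosomal protein genes as a group), fixed anchors and up to 5 further members of each list with the highest percentiles, the 10 widest ranges and the 10 largest rank shifts each way; not every gene so taken is named, and genes named outside this rule are marked as such. Promoter shares cover protein-coding genes without chromosome 8, a restriction chosen after seeing which genes the promoter table holds. With 1 untreated group there is no contrast and no test was made, and the number of arrays limits the precision. Alternatives were other ceilings, probe set choices, quantile normalization, a stricter bound for bright genes, and leaving out each array. The calling procedure was tested on simulated data. Python 3.11.15, pandas 2.3.3, NumPy 2.4.6, SciPy 1.17.1 and matplotlib 3.10.9 were used.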

Additional observations from a re-analysis of the deposited data

How the results depend on the processing

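Over the alternatives tried, the number of genes above background ran from 5761 (only probe sets without a suffix for shared probes, which also leaves fewer genes measured) to 9863 (the doxycycline vehicle array alone). Leaving out 1 array gave 8644 to 8774 genes above background and 1786 to 1879 bright genes. Bright genes numbered 864 when the bound was the highest 5%. Markers of other lineages above background numbered 15 at a ceiling on the 99th percentile and 13 with only the probe sets without such a suffix, against 23. With the latter, mesenchymal markers numbered 14 against 25, receptors 71 against 116 and secreted proteins 72 against 110. The rank correlation with the doxycycline vehicle array was 0.989 for the mean of the 3 arrays, 0.977 over genes above background, 0.983 for vehicle 2 alone and 0.983 for vehicle 3 alone, and 0.984 to 0.991 when 1 array was left out. Of 4288 values of 337 named genes, 4124 kept their side of the ceiling, 104 lost the call and 60 gained it. In at least 1 alternative 105 genes changed side. The stricter bound for bright genes does not enter this call, so part of the 4124 was fixed in advance. Quantile normalization keeps the order of probe sets within an array, so it could hardly change a call. Genes without a probe set free of a suffix for shared probes were left out of that alternative. Of 908 list counts, 821 stayed within 1.5 times the reported count. Part of these counts could not move. A changed ceiling leaves every count of bright genes as it was. The stricter bound for bright genes leaves every count above background as it was. The 821 is therefore not a measure of stability. Leaving 4 olfactory receptor genes that adjoin HBE1 out of the background, chosen after seeing the data, gave 9383 genes above background. No paired analysis was possible because only 1 group is described and no result comes from a test. Without detection calls, signal near the ceiling cannot be told from background.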

Other observations

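Of 66 measured genes with expression restricted to tissues such as eye, pituitary, pancreas and hair, 63 were at or under the ceiling and 1 was bright. That gene was HBE1, the globin of the early embryo, at 10.48, 10.98 and 11.24 on vehicle 1, 2 and 3, through 1 of 2 probe sets, and at the 93.3 percentile on the doxycycline vehicle array against 95.2. The olfactory receptor genes named here were chosen after their values were seen. The gene next to HBE1 in the order of RefSeq genes, OR51B4, had the highest mean of the 82 olfactory receptor genes, at 7.92, 7.44 and 7.63. OR51B5, at 6.86, 7.51 and 7.78, was also above background and lies 3 genes from HBE1, while OR51B2 between them was under the ceiling at 6.12, 6.42 and 6.68. These genes also define the background, and without the 4 that adjoin HBE1 the number of genes above background was 9383 in place of 8571. The globin genes beside HBE1 were also looked at after the data were seen. HBB was above background at 7.28, 7.65 and 7.51, with 4 of 4 probe sets above. HBD was under the ceiling at 4.96, 5.68 and 5.29, and HBG1 and HBG2 were not measured. Whether the signals share a source was not tested.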
